A study of Homo sapiens with 16 samples.

Results

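The human genome carries one of its densest families of transcription factor genes on chromosome 19, and the 240 zinc-finger genes analysed here are the members of that family with a symbol of the form ZNF and a number. They were taken as the protein-coding genes of chromosome 19 in GENCODE v29 (GRCh38) whose symbol is ZNF followed by digits or by digits and one letter. There were 246 such genes, and 240 of them had a row among the 22445 gene IDs of the expression table. ZNF560, ZNF676, ZNF728, ZNF112, ZNF541 and ZNF256 were not analysed here. ZNF723 had a row but averaged 0.764 normalised counts, which was too low to test, so 239 members were tested.

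Molm14 is a human acute myeloid leukaemia line with a rearranged KMT2A gene. Cells were grown for 7 days with both inhibitors (Combo: EPZ5676 at 0.16 uM and GSK126 at 0.3 uM), with the DOT1L inhibitor EPZ5676 alone at 0.16 uM (iDOT1L), with the EZH2 inhibitor GSK126 alone at 0.3 uM (iEZH2), or with DMSO. Both were replenished on day 4, and RNA-seq libraries were made in 4 replicates for each of the 4 groups. The treatment text gives 7 days, while the extraction text speaks of RNA taken some days after a sort that is described nowhere else. The treatment text is followed here, and the conflict could not be settled. All groups are the same line. Nothing in the labels tells whether replicates came from separate cultures, so a p-value here reflects only how these libraries vary, which may be technical. DOT1L methylates a lysine in the core of histone H3 along transcribed genes, and EZH2, the catalytic subunit of PRC2, methylates a lysine of the H3 tail at silent genes.

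Most proteins of this family carry a row of C2H2 zinc fingers, each a short fold in which 2 cysteines and 2 histidines hold a zinc ion and which reads a few bases of DNA. Many also carry a KRAB domain, which binds the scaffold protein TRIM28 and through it the histone methyltransferase SETDB1, and so brings a repressive mark on histone H3 to the sites the fingers bind, many of them in transposable elements. The genes arose by repeated duplication, sit in clusters and differ mainly in their fingers.

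That shared build is visible in the coding sequence. One 78-base unit, a finger and the linker after it, is shown for each of 3 members that fell in Combo, ZNF790, ZNF616 and ZNF146, with the codons of the zinc-binding cysteines and histidines in capitals. The units lie at chr19:36819585-36819662 (minus strand), chr19:52116276-52116353 (minus strand) and chr19:36236660-36236737 (plus strand) of GRCh38.
ZNF790: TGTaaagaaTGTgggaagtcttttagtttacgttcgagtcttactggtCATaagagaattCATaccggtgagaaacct
ZNF616: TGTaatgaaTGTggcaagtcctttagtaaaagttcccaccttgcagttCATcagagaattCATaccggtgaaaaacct
ZNF146: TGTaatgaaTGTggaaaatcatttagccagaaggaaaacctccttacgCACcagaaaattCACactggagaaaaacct
The ZNF790 and ZNF616 units were identical at 63 of 78 bases (80.8%), ZNF616 and ZNF146 at 69.2%, and ZNF790 and ZNF146 at 62.8%. Each unit was the first in its gene to match a set pattern of cysteines, histidines and linker, so part of this identity was fixed in advance. The whole genes encode 12 fingers in ZNF790, 21 in ZNF616 and 10 in ZNF146. Among the 239 members tested, the number of fingers ran from 0 to 36 with a median of 12, and 204 encoded a KRAB motif by the pattern searched while 35 did not. Such likeness bears on the counts, because a read from a shared stretch could come from more than one gene. In 49 of the 239 members over 20% of the 31-base words of the transcripts also occurred in another gene, and their levels are uncertain for that reason. The share was 3.56% in ZNF790, 6.26% in ZNF616 and 0.24% in ZNF146.

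Levels are given as normalised counts, that is reads scaled between libraries and recovered from the deposited log2 values. The members were expressed at modest levels, with a median over members of 161.1 normalised counts against 328.2 for all protein-coding genes in the table. Their means ran from 0.719 to 4414 normalised counts, 10 members were above 1000 and 34 were under 10. Library totals were 22.4 to 24.1 M normalised counts. The 10 markers of a myeloid leukaemia line were detected in all 4 groups, while MS4A1, a B cell marker, averaged 1.78. Among markers of other cells the highest were the B cell factor PAX5 at 826.6, the keratins KRT18 at 715.2 and KRT8 at 246.3, and the collagen COL1A1 at 138.5 normalised counts. Summed over its list, the myeloid set spanned 29947 to 39317 in Combo, 29887 to 32537 in iDOT1L, 17503 to 22453 in iEZH2 and 21938 to 25585 in DMSO. The 5 B cell markers summed to 529.7 to 847.2 in Combo, 686.6 to 891.5 in iDOT1L, 747.3 to 1358 in iEZH2 and 1011 to 1425 in DMSO, and the 5 fibroblast markers to 272.7 to 322.5 in Combo, 141.6 to 277.1 in iDOT1L, 109.4 to 307.8 in iEZH2 and 101.4 to 152.9 in DMSO. The 5 epithelial markers summed to 782.5 to 1066 in Combo, 591.4 to 818.2 in iDOT1L, 1124 to 1311 in iEZH2 and 1033 to 1405 in DMSO, and the 3 T cell markers in the table to at most 61.95. Combo did not overlap with DMSO in the myeloid, B cell and fibroblast sums, and iDOT1L did not in the myeloid, B cell and epithelial sums. The iEZH2 libraries overlapped with DMSO in each of these sums. The part of these differences in the values below was not tested.

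Per kilobase of transcript, the most abundant member was ZNF146, a protein made almost wholly of zinc fingers, at 1168 normalised counts per kb. ZNF428, which encodes a single finger, followed at 824.1, then ZNF787 at 611.8, ZNF100 at 465.2 and ZNF317 at 457.3. These last 3 passed no comparison against DMSO. ZNF317 averaged 1810 ± 134 normalised counts in Combo, 2022 ± 161 in iDOT1L, 1723 ± 188 in iEZH2 and 1896 ± 88.5 in DMSO (SD, n = 4 each), and ZNF787 stayed between group means of 1158 and 1211. ZNF100 averaged 762.5 ± 71.4 in Combo, 878.8 ± 76.3 in iDOT1L, 903.9 ± 98.9 in iEZH2 and 878.7 ± 29.5 in DMSO.

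Summed over all 240 members, the RNA of the family was lowest with both inhibitors. The 4 Combo libraries held 64200, 69712, 67075 and 65432 normalised counts, the iDOT1L libraries 78757, 74856, 72071 and 72643, the iEZH2 libraries 74484, 70496, 67371 and 66613, and the DMSO libraries 77829, 74843, 73820 and 73164. Every Combo library lay below every iDOT1L and every DMSO library, and the iEZH2 libraries overlapped with each of the other groups. The family's share of a library averaged 0.289% ± 0.018 in Combo, 0.324% ± 0.012 in iDOT1L, 0.303% ± 0.015 in iEZH2 and 0.32% ± 0.0084 in DMSO. A lower sum in a bulk library can come from fewer cells that express a gene or from less RNA per cell, and these cannot be told apart. ZNF146 alone made up 5.47% to 6.85% of the sum in each library.

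**Figure D1:**
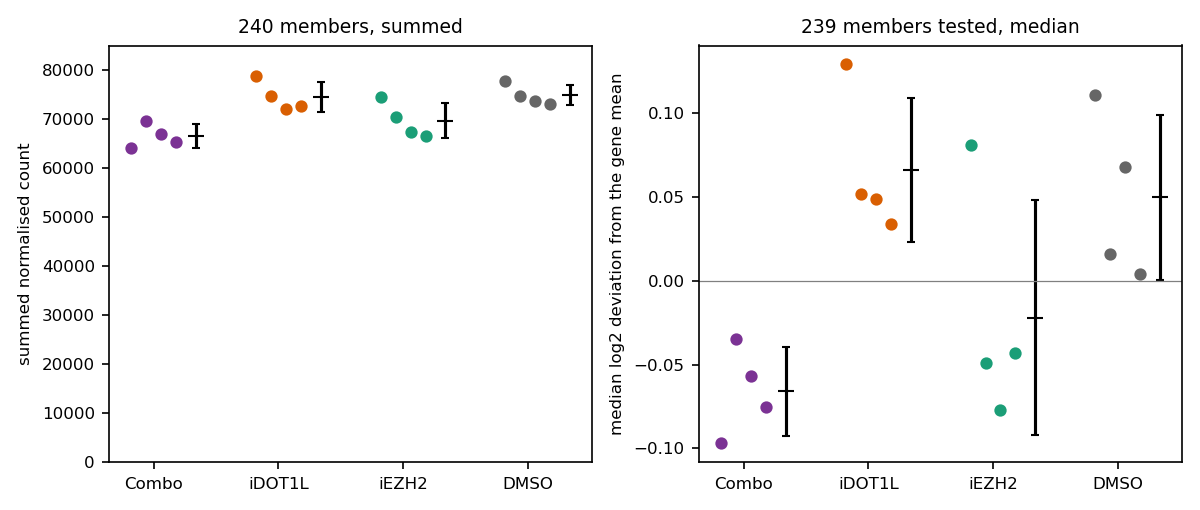
Summed normalised count of the 240 members in each library (left) and the median over the 239 members tested of each library's log2 deviation from the gene's mean (right); points are libraries, bars the mean and SD of 4. All Combo sums, up to 69712, lie under the lowest DMSO sum of 73164, and replicate 1 is the highest of its group in iDOT1L, iEZH2 and DMSO and the lowest in Combo.

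With both inhibitors, 19 of the 239 members fell and 2 rose against DMSO, by limma with an adjusted p under 0.05 over all 22331 genes tested. The genes that fell had log2 fold changes of -0.87 to -0.26, with a median of -0.48, and were expressed at 109.6 to 4414 normalised counts. They were 7.95% of the members, against 8.8% of all genes tested, and the 2 that rose were 0.837% against 7.22%. In this fit the share that fell was near that of all genes, and the share that rose was below it. Among all protein-coding genes tested 10.7% fell and 8.51% rose, both above the shares of the members. With each library corrected for GC content and length, 28 members fell (11.7%, against 11% of all genes) and 2 rose (0.837%, against 5.95%). The median log2 fold change over the members was -0.11, with 156 of 239 (65.3%) below 0, against a median of 0.03 and 47.2% below 0 over all genes. That median depends on the processing, at -0.06 on the deposited log2 scale (0.01 over all genes) and -0.18 with the correction for GC content and length (-0.03 over all genes). The shift was thus mostly made of differences too small to be called one by one.

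The level of the genes matters to this reading, since low genes are hard to call. All 19 genes that fell were among the 152 members with a mean of at least 100 normalised counts, where they made up 12.5%, against 15.5% of all genes at that level. In that range 119 of the 152 members (78.3%) were below 0 with a median log2 fold change of -0.18, against 54.9% and -0.04 for all genes. The 87 members under 100 had a median of 0.06, and 1 of them rose. The zinc-finger genes of other chromosomes had a median of 0.01 with 26 of 251 lower (10.4%) and 11 higher (4.38%). The other protein-coding genes of chromosome 19 had a median of -0.05 with 130 of 1051 lower (12.4%) and 56 higher (5.33%).

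**Figure D2:**
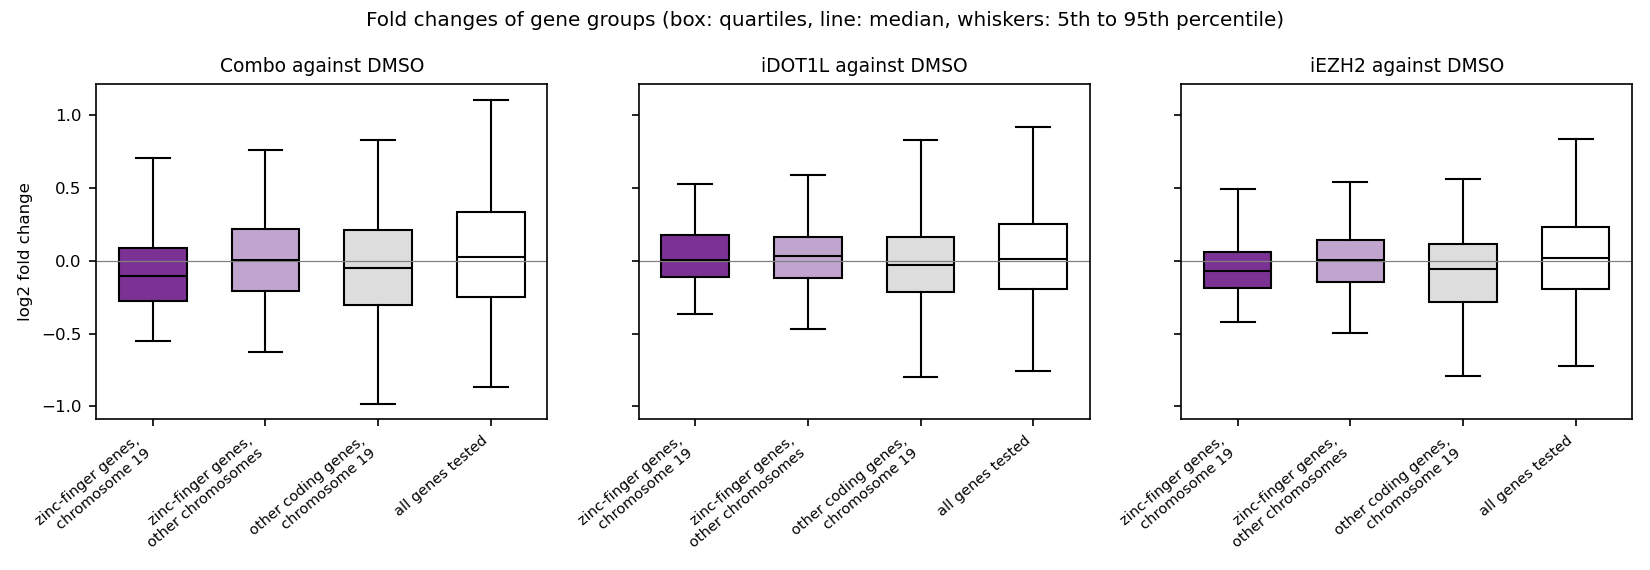
Log2 fold changes against DMSO in Combo, iDOT1L and iEZH2 for the 239 members tested, 251 zinc-finger genes of other chromosomes, 1051 other coding genes of chromosome 19 and all 22331 genes; boxes show quartiles, lines medians and whiskers the 5th to 95th percentile. The members' median is at -0.11 in Combo, 0.01 in iDOT1L and -0.07 in iEZH2, and their boxes are narrower than that of all genes.

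**Figure D3:**
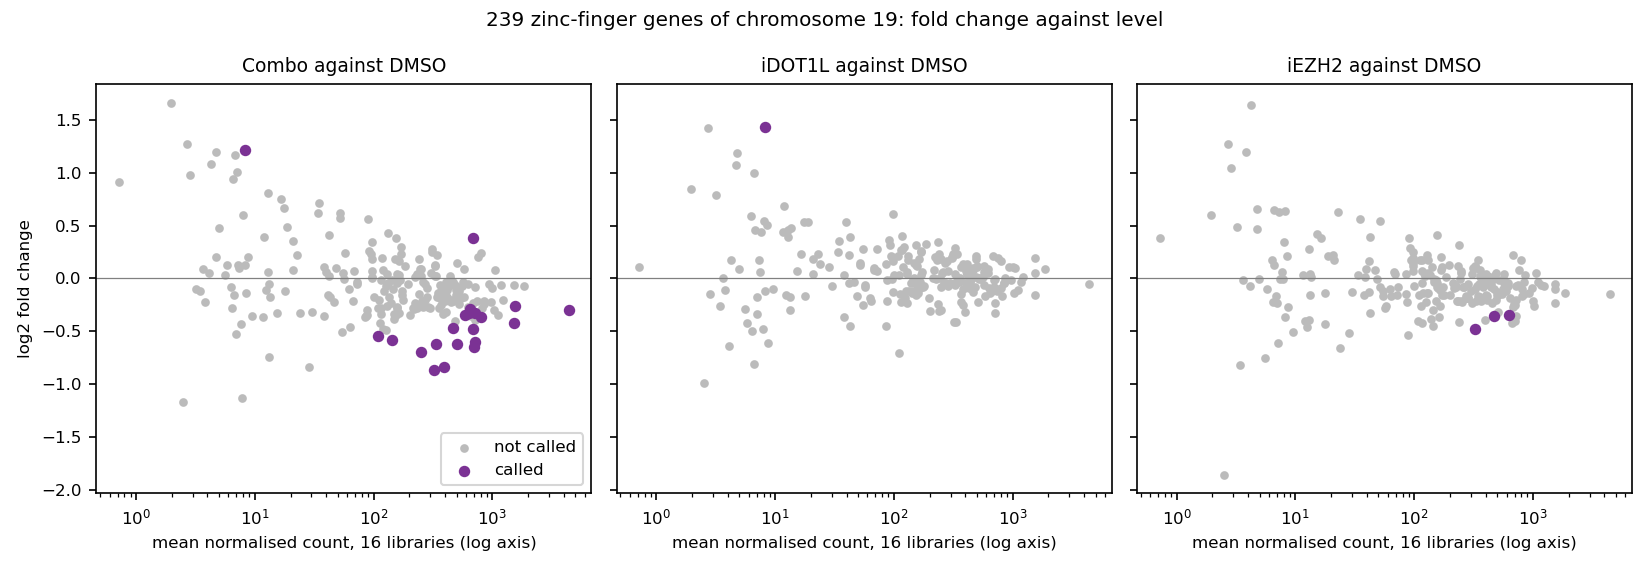
Log2 fold change of each of the 239 members against its mean normalised count over 16 libraries (log axis), for each treatment against DMSO; purple points passed the test and grey points did not. The 19 genes that fell in Combo all lie above 100 normalised counts, and the widest uncalled fold changes belong to genes with few reads.

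The clearest fall was in ZNF790, a KRAB zinc-finger gene at chr19:36817428-36850787. It had 215.5, 252.4, 251.1 and 217 normalised counts in Combo, 339.3, 306.3, 343.9 and 299.9 in iDOT1L, 319.6, 345.9, 328.1 and 241 in iEZH2, and 498.6, 419.5, 436.5 and 368.4 in DMSO. The highest Combo library was below the lowest DMSO library, the iDOT1L libraries lay between, and iEZH2 replicate 4 was within the Combo range. The log2 fold change in Combo against DMSO was -0.87 ± 0.13 (SE; limma, adjusted p = 7.39e-05).

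ZNF616, a KRAB gene at chr19:52113091-52139922, had 288.3, 326.3, 246.2 and 261.6 normalised counts in Combo, 479.3, 412.2, 336.8 and 382.7 in iDOT1L, 471, 365.6, 350.3 and 355.4 in iEZH2, and 455.2, 631.3, 516.7 and 421 in DMSO. Combo and DMSO did not overlap, while iDOT1L and iEZH2 each reached into the DMSO range. Its log2 fold change in Combo against DMSO was -0.84 ± 0.14 (SE; limma, adjusted p = 0.000419).

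ZNF558, a KRAB gene at chr19:8806170-8832328 known to repress the mitophagy gene SPATA18 in human neural progenitors, had 597.3, 557, 536 and 585.2 normalised counts in Combo, 809.6, 607.7, 652.4 and 687 in iDOT1L, 888.5, 663.6, 687.3 and 670.1 in iEZH2, and 902.1, 883.3, 798 and 858.9 in DMSO. All 4 Combo libraries were below every other library. The log2 fold change was -0.60 ± 0.11 in Combo against DMSO (SE; limma, adjusted p = 0.000616).

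Promoters of the 3 genes with the lowest adjusted p among those that fell, and of ZNF428, which rose, are printed because their starts differ in motif content. Each runs from 250 bases before to 50 after the RefSeq start (GRCh38.p14, minus strand in all 4), with GGGCGG, the core of the SP1 site, and CCGGAAG, an ETS-type site, in capitals on either strand.
ZNF790 (chr19:36850743-36851042): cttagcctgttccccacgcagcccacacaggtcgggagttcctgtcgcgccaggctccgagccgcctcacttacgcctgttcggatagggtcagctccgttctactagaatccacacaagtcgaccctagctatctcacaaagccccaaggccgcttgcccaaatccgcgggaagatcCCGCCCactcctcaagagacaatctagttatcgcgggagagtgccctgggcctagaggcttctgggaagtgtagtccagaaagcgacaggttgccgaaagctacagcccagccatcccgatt
ZNF616 (chr19:52139889-52140188): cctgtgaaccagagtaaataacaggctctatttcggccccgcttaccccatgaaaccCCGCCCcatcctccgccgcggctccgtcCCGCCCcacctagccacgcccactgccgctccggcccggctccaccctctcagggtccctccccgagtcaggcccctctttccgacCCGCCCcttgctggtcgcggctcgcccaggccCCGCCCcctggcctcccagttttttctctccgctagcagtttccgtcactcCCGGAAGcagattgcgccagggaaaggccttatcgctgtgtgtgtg
ZNF558 (chr19:8832255-8832554): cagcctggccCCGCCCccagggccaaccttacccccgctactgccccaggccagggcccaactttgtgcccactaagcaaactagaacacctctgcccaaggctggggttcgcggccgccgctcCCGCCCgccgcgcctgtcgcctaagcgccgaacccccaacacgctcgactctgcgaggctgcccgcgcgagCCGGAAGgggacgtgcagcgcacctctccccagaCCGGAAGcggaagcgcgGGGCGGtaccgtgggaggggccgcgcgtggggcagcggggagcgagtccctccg
ZNF428 (chr19:43619580-43619879): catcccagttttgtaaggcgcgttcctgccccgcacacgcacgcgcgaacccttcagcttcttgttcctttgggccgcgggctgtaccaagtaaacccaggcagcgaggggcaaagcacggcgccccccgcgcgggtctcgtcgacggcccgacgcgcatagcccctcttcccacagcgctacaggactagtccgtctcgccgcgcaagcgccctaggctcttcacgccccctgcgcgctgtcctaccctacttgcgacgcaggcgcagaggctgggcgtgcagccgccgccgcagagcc
ZNF790 held 1 SP1 core, ZNF616 4 SP1 cores and 1 ETS site, ZNF558 3 SP1 cores and 2 ETS sites, and ZNF428 neither motif, and no pair of these matches overlapped. Of the 211 members with a promoter in the table, 46% held CCGGAAG and 67.3% GGGCGG on either strand, against 10.7% and 44.6% of all 27305 promoters. TATAAA was found in 1.9% of members and 12% of all promoters. Among the 17 matched genes that fell in Combo, 52.9% held CCGGAAG, against 45.1% of the 193 other members tested. For GGGCGG these shares were 76.5% and 66.3%, and neither difference was tested. The GC content of the promoter had a median of 59.7% in members, 63% in the 17 that fell and 58.3% in all promoters. The ratio of observed to expected CpG had medians of 0.765, 0.798 and 0.58 in the same order. A match describes the letters in the window and not the binding of a factor.

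Other members fell by smaller amounts. ZNF780A, a KRAB gene at chr19:40069152-40090938, had 370.6, 485.9, 398.6 and 340.5 normalised counts in Combo, 626.5, 521.1, 490.8 and 463.2 in iDOT1L, 539.6, 523.7, 502.4 and 400.1 in iEZH2, and 630, 636, 544.8 and 632.8 in DMSO, a log2 fold change of -0.62 ± 0.13 in Combo against DMSO (SE; limma, adjusted p = 0.00192). Combo stayed below DMSO in every library and overlapped with both single treatments. ZNF473, also called ZFP100, binds the U7 small nuclear ribonucleoprotein and takes part in the processing of histone messenger RNA. It averaged 563.7 ± 33.9 normalised counts in Combo, 729.4 ± 54.5 in iDOT1L, 659 ± 109 in iEZH2 and 791.5 ± 101 in DMSO (SD, n = 4 each), a log2 fold change of -0.48 ± 0.12 in Combo (SE; limma, adjusted p = 0.00708).

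ZNF146 had 3510, 4064, 4110 and 3949 normalised counts in Combo, 4805, 4533, 4507 and 4622 in iDOT1L, 4146, 4605, 4613 and 3981 in iEZH2, and 4605, 5057, 4528 and 4995 in DMSO. Its Combo libraries were below every DMSO and iDOT1L library, and its log2 fold change in Combo was small at -0.30 ± 0.08 (SE; limma, adjusted p = 0.0107). ZNF888 averaged 393.2 ± 21.1 in Combo and 546.8 ± 36.5 in DMSO (log2 fold change -0.47 ± 0.10 SE; limma, adjusted p = 0.00199), and ZNF440 513.1 ± 16.4 in Combo and 656.9 ± 45.1 in DMSO (-0.35 ± 0.09 SE; limma, adjusted p = 0.00789). Both are uncertain as single genes, since 32.5% of the 31-base words of ZNF888 and 24.5% of those of ZNF440 occur in other genes, with ZNF701 and ZNF439 as the main partners.

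Of the 19 genes, 16 encoded a KRAB motif, as did 204 of the 239 members tested. The calls on ZNF790, ZNF616, ZNF558, ZNF780A, ZNF888, ZNF473, ZNF440 and ZNF146 held whichever Combo or DMSO library was left out. The other 11, ZNF627, ZNF865, ZNF283, ZNF160, ZNF468, ZNF383, ZNF528, ZNF121, ZNF490, ZNF431 and ZNF20, each lost the call without at least 1 library, and the count of 19 became 12 without DMSO replicate 1 or without DMSO replicate 3. ZNF468, ZNF490 and ZNF20 shared 63.2%, 62.4% and 54.5% of their words with other genes. Leaving aside all members over 20%, 14 of 190 fell and 2 rose, with a median log2 fold change of -0.11.

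**Figure D4:**
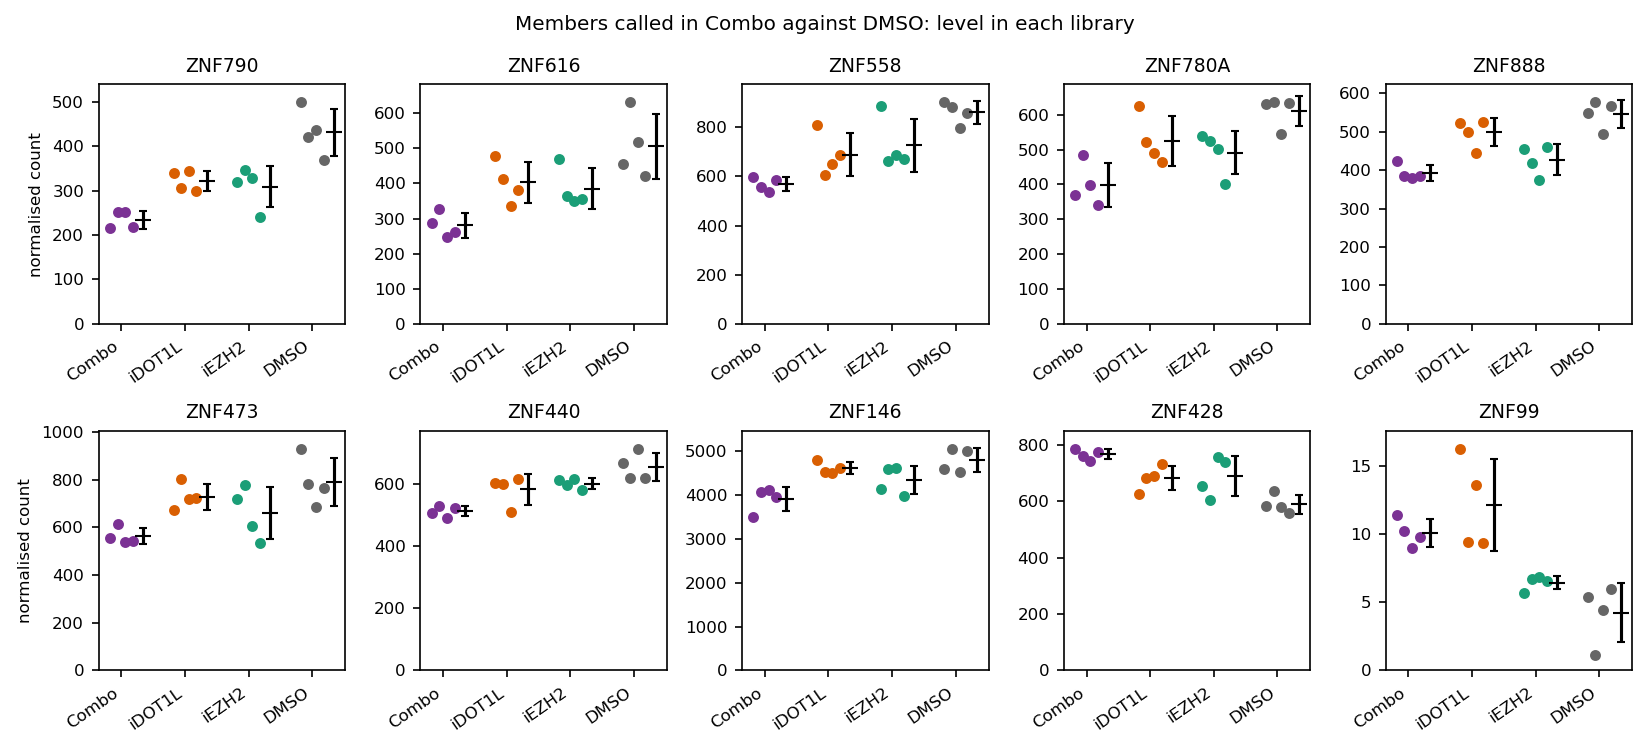
Normalised count in each library of the 8 members with the lowest adjusted p among those that fell in Combo against DMSO and of the 2 that rose, ZNF428 and ZNF99; points are the 4 libraries of a group, bars the mean and SD. In those that fell the Combo libraries lie below every DMSO library, while in ZNF428 and ZNF99 they lie above. The genes were chosen by this same contrast, so the separation is no further support.

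Only 2 members rose in Combo, ZNF428 and ZNF99. ZNF428, at chr19:43607219-43619874, had 785.6, 761.6, 743.5 and 774.4 normalised counts in Combo, 626.8, 681.7, 689.5 and 731.4 in iDOT1L, 654.6, 603.6, 756 and 738.9 in iEZH2, and 583.7, 636.4, 580.7 and 556.2 in DMSO. Combo did not overlap with DMSO or iDOT1L, while iEZH2 reached into the Combo and DMSO ranges, at a log2 fold change of 0.38 ± 0.09 in Combo (SE; limma, adjusted p = 0.00593). Exons of SRRM5 on the other strand cover 27.6% of its exonic bases, and the strand setting of the libraries is not given in the sources used here, so reads of the 2 genes may not be separable there.

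ZNF99, a KRAB gene with 26 fingers at chr19:22752183-22784107, was barely expressed, with 11.45, 10.28, 8.96 and 9.77 normalised counts in Combo, 16.29, 9.46, 13.61 and 9.38 in iDOT1L, 5.72, 6.68, 6.85 and 6.58 in iEZH2, and 5.41, 1.1, 4.46 and 5.99 in DMSO. Combo and iDOT1L lay above every DMSO and iEZH2 library. The log2 fold change was 1.22 ± 0.37 in Combo and 1.43 ± 0.37 in iDOT1L (SE; limma, adjusted p = 0.03 and 0.0237). DMSO replicate 2, with 1.1, is far under the rest of its group, and without it these values were 0.82 and 1.04 (limma, adjusted p = 0.0964 and 0.0694). The call in Combo was also lost without any single Combo library.

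Along the chromosome, members were grouped wherever neighbours lay within 1 Mb, which gave 16 clusters. The cluster at chr19:51571298-53580269, from ZNF175 to ZNF331, held 5 of the genes that fell among 39 tested, ZNF616, ZNF888, ZNF160, ZNF468 and ZNF528, with a median log2 fold change of -0.19 in Combo. The cluster at chr19:11483427-12640098, from ZNF653 to ZNF791, held 4 of 25 (ZNF440, ZNF627, ZNF490 and ZNF20) with a median of -0.20. The cluster at chr19:36182060-37817300 held 3 of 26 (ZNF790, ZNF146 and ZNF383) with a median of -0.14. The most populous cluster, at chr19:55476332-58481230 near the end of the long arm, had ZNF865 lower among its 58 tested, with a median of -0.06. The cluster at chr19:19668796-24129961 beside the centromere had ZNF431 lower and ZNF99 higher among 34, with a median of -0.04. In the order given, the shares lower were 12.8%, 16%, 11.5%, 1.72% and 2.94%, against 8.8% of all genes tested. The cluster from ZNF557 to ZNF846 had 2 of 14 lower (14.3%, median -0.14). The cluster from ZNF575 to ZNF296 had 1 of 23 lower (4.35%) and 1 higher, with a median of -0.16. ZNF780A and ZNF473 fell in clusters of fewer than 5 members. Among all genes with a mean of at least 100 normalised counts 15.5% were lower. Many members of the cluster beside the centromere had few reads, such as ZNF98 with a mean of 0.719 normalised counts and ZNF730 with 2.5. No member with a mean under 100 fell in Combo. The part of level in the share and median of that cluster was not tested. These values are descriptions, and no difference between clusters was tested.

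**Figure D5:**
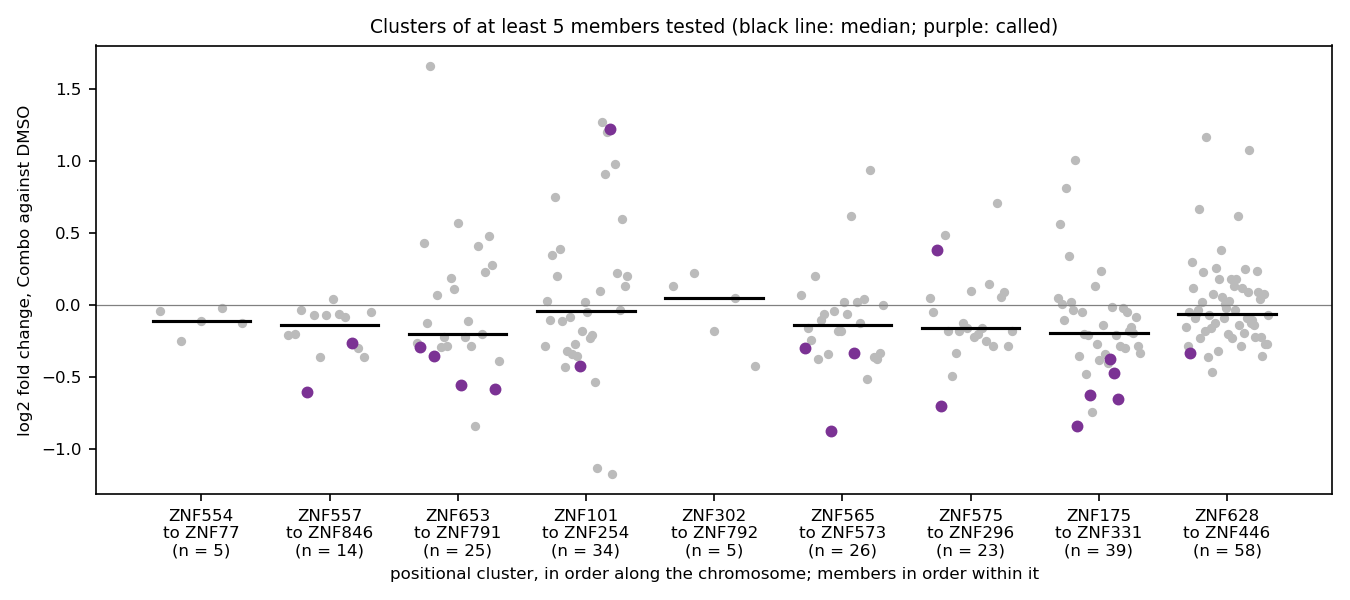
Log2 fold change in Combo against DMSO of each member tested, in its order along the chromosome, for the 9 clusters with at least 5 members tested; black lines are medians and purple points passed the test. Medians run from -0.20 to 0.05, and the genes that fell among those shown are spread over 7 of these clusters. ZNF780A and ZNF473, which also fell, lie in smaller clusters that are not shown.

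With the DOT1L inhibitor alone, the family hardly moved. ZNF99 rose and no member fell by limma, which is 0.418% of members higher against 3.08% of all genes and 0% lower against 3.17%, with 6 members higher (2.51%, against 8.75% of all genes) and 5 lower (2.09%, against 9.03%) at an unadjusted p under 0.05. The call on ZNF99 was lost without iDOT1L replicate 1, without iDOT1L replicate 3 or without DMSO replicate 2. The median log2 fold change over members was 0.01, the same as over all genes. Replicates with the same number in iDOT1L and DMSO deviated together, so a fit with the replicate number as a block is given beside this one. In it ZNF99 again rose and ZNF358, ZNF558 and ZNF790 fell, by -0.71, -0.33 and -0.41 on the log2 scale (limma with the block, adjusted p = 0.00142, 0.0108 and 0.0124), while 5.69% of all genes were higher and 6.53% lower.

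ZNF358, a member with 9 fingers and no KRAB motif by the pattern searched, had 105.6, 58.5, 65.8 and 71.5 normalised counts in iDOT1L and 157.7, 90.8, 119.6 and 123.5 in DMSO. The groups overlapped through iDOT1L replicate 1, but within each number the iDOT1L library was the lower one. In Combo it had 130, 87.7, 90.6 and 116.1 normalised counts, within or close to the DMSO range. The words it shared with other genes came to 19.7%.

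With the EZH2 inhibitor alone, 3 members fell and none rose by limma, 1.26% lower against 2.05% of all genes and 0% higher against 1.3%, with 18 members lower (7.53%, against 8.45% of all genes) and 7 higher (2.93%, against 7.28%) at an unadjusted p under 0.05. They were ZNF790 (log2 fold change -0.48 ± 0.13 SE, adjusted p = 0.0388), ZNF865 (-0.35 ± 0.09 SE, adjusted p = 0.0431) and ZNF888 (-0.36 ± 0.10 SE, adjusted p = 0.0483), all by limma. ZNF865, which has 20 fingers and no KRAB motif by the pattern searched, had 601.7, 519.8, 548.9 and 582.4 normalised counts in iEZH2 and 725.6, 633.1, 808.2 and 707.2 in DMSO, with no overlap. In Combo it had 539.9, 550.7, 631.9 and 554.1, a log2 fold change of -0.33 ± 0.09 against DMSO (SE; limma, adjusted p = 0.018). Over the members the median was -0.07, with 155 of 239 (64.9%) below 0, against 0.02 and 47.9% over all genes.

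These 3 calls were near the threshold. The count was 0 without iEZH2 replicate 3, iEZH2 replicate 4, DMSO replicate 1 or DMSO replicate 3, 1 without iEZH2 replicate 2, DMSO replicate 2 or DMSO replicate 4, and 6 without iEZH2 replicate 1. With the replicate block, for which iEZH2 and DMSO also deviated together, 9 members fell and 1 rose, where 5.89% of all genes were lower and 3.87% higher. The members that fell were ZNF790, ZNF888, ZNF865, ZNF562, ZNF536, ZNF121, ZNF160, ZNF730 and ZNF616, and ZNF418 rose (log2 fold change 1.64; limma with the block, adjusted p = 0.0328). ZNF418 averaged 4.27 normalised counts and ZNF730 2.5 over all libraries, so both rest on few reads.

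The 3 contrasts against DMSO share the DMSO libraries, so their values are given side by side and not as agreement. Over the 19 genes that fell in Combo, the median log2 fold change was -0.48 in Combo, -0.13 in iDOT1L and -0.23 in iEZH2. Against the single treatments no member was called in this fit, but both counts depended on the processing. With the correction for GC content and length 5 members were lower in Combo than in iDOT1L, 2.09% against 2.03% of all genes. With it 1 member was higher in Combo than in iEZH2, 0.418% against 2.07% of all genes. With the replicate block 16 members were lower in Combo than in iDOT1L (6.69%, against 6.26% of all genes) and 1 higher (0.418%, against 3.78%). Against iEZH2 it gave 7 lower (2.93%, against 5.24%) and 1 higher (0.418%, against 4.33%). Pairing by replicate number is not established for Combo. In Combo against iDOT1L, 0 of 239 members passed in either direction by limma, where 1.11% of all genes were higher and 1.48% lower, and at an unadjusted p under 0.05 there were 34 members lower (14.2%, against 9.01% of all genes) and 3 higher (1.26%, against 7.63%). The median over members was -0.14 with 170 of 239 (71.1%) below 0, against 0.01 and 49.3% over all genes. In Combo against iEZH2, 0 members passed by limma, where 2.08% of all genes were higher and 1.72% lower, with 15 members lower (6.28%, against 7.76% of all genes) and 6 higher (2.51%, against 7.64%) unadjusted and a median of -0.03.

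Whether the combination departed from the sum of both single effects was tested as Combo minus iDOT1L minus iEZH2 plus DMSO on the log2 scale. No member and no gene of the table passed by limma (0% higher and 0% lower). At an unadjusted p under 0.05, 2 members were higher (0.837%, against 1.97% of all genes) and 1 lower (0.418%, against 1.83%). For ZNF790 this difference was 0.02 ± 0.18 and for ZNF616 -0.13 ± 0.20 (SE). The SEs show how wide a departure would go uncalled, so this does not show that the effects added.

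Several members with known targets did not pass any comparison. ZNF91 and ZNF93 repress SVA and LINE elements and were low in this line. ZNF91 averaged 23.6 ± 14.7 normalised counts in Combo, 20.8 ± 5.56 in iDOT1L, 29.7 ± 16.9 in iEZH2 and 17.3 ± 2.82 in DMSO, and ZNF93 21.5 ± 5.03 in Combo, 14.8 ± 3.89 in iDOT1L, 17.1 ± 6.6 in iEZH2 and 12.7 ± 4.64 in DMSO (SD, n = 4 each). ZNF331, an imprinted gene, averaged 20.9 ± 4.89 in Combo, 31.1 ± 12.4 in iDOT1L, 16.5 ± 4.28 in iEZH2 and 27.3 ± 8.87 in DMSO. At such levels only large changes could be seen.

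ZNF274 binds the ends of zinc-finger genes themselves and recruits SETDB1 there. It had 418, 434.8, 399.4 and 414.3 normalised counts in Combo, 523.3, 468.4, 498.2 and 468.2 in iDOT1L, 474.9, 376.6, 414.7 and 398 in iEZH2, and 468.6, 506.2, 479.4 and 491.9 in DMSO. Every Combo library was below every DMSO library, yet the log2 fold change of -0.22 ± 0.09 did not pass (SE; limma, adjusted p = 0.107). ZNF417 and ZNF587, which repress HERV-K elements, averaged 257.4 ± 32.9 and 965.4 ± 56.6 in Combo, 242.1 ± 22.3 and 1110 ± 155 in iDOT1L, 241.3 ± 31.9 and 891.1 ± 116 in iEZH2, and 241.9 ± 23.5 and 1026 ± 84.9 in DMSO (SD, n = 4 each), and shared 49.7% and 31.7% of their words with other genes.

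The machinery that KRAB proteins call on was read from a list of 28 genes, all tested. In Combo 1 rose (3.57%, against 7.22% of all genes) and 4 fell (14.3%, against 8.8%) against DMSO, with a median log2 fold change of -0.12 against 0.03 over all genes. All of the list but EHMT2 averaged above 100 normalised counts in each group. Among all genes with a mean of at least 100, 9.04% rose and 15.5% fell, with a median of -0.04, so the share that fell was near that of genes at this level. TRIM28, the scaffold itself, had 13425, 12769, 13331 and 13287 normalised counts in Combo, 10352, 12740, 11761 and 12203 in iDOT1L, 10890, 13279, 13136 and 12792 in iEZH2, and 9770, 11316, 9831 and 10729 in DMSO. It rose in Combo without overlap with DMSO (log2 fold change 0.35 ± 0.08 SE; limma, adjusted p = 0.00635). SETDB1 averaged 2737 ± 131 in Combo and 3178 ± 165 in DMSO (SD, n = 4 each) and fell by 0.22 on the log2 scale (limma, adjusted p = 0.04). MORC2 and MORC3, chromatin ATPases that act in silencing, fell by 0.33 and 0.39 on the log2 scale (limma, adjusted p = 0.0287 and 0.00636).

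DNMT3B, a DNA methyltransferase, was the 1 gene of this list to fall with the DOT1L inhibitor alone (3.57%, against 3.17% of all genes). None rose, against 3.08% of all genes. Among all genes with a mean of at least 100 normalised counts 5.18% fell and 4.31% rose in iDOT1L. DNMT3B had 730.1, 586.5, 627.8 and 702.8 normalised counts in Combo, 761, 570.9, 608.7 and 668.3 in iDOT1L, 943.4, 701, 774.4 and 799.8 in iEZH2, and 1023, 939.3, 939.6 and 976.2 in DMSO. Combo and iDOT1L lay below every DMSO library, at log2 fold changes of -0.56 and -0.58 (limma, adjusted p = 0.00134 and 0.00229). With the replicate block CBX3 (-0.20, adjusted p = 0.0361) and MORC2 (-0.34, adjusted p = 0.0249) also fell in iDOT1L and UHRF1 rose (0.25, adjusted p = 0.00402) by limma. With the EZH2 inhibitor alone 0 of the 28 passed by limma, with 1 higher (3.57%, against 7.28% of all genes) and 5 lower (17.9%, against 8.45%) at an unadjusted p under 0.05. Among all genes with a mean of at least 100 these unadjusted shares were 8.57% higher and 13.1% lower. In iEZH2 the block fit gave falls for DNMT3B (-0.28, adjusted p = 0.0165) and MORC3 (-0.32, adjusted p = 0.00478) and a rise for TRIM28 (0.26, adjusted p = 0.00854) by limma.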

How the data were processed

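RNA of 16 Molm14 libraries was sequenced with paired reads. Per the submitters' processing notes the tools were kallisto and DESeq2 and the build hg38. Versions, transcript annotation and strand setting are not stated. The authors deposited variance-stabilised log2 values, scaled between libraries, whose lowest value, 6.28106 in each library, stands for a count of 0. They were inverted to normalised counts, so depth is known only after scaling.

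Symbols and positions came from GENCODE v29 (20784 of 22445 IDs matched), promoters from RefSeq (GRCh38.p14). Fingers and KRAB motifs were read from the longest GENCODE coding sequence, not from RefSeq proteins as planned, and SCAN motifs were not scored. A gene was tested if it exceeded 1 normalised count in 4 or more libraries (22331). Limma-trend 3.58.1 (R 4.3.3) was run on log2(normalised count + 1), which understates changes of low genes, with 4 group means, 12 residual degrees of freedom, two-sided, and Benjamini-Hochberg adjustment over all genes tested. The scripts were tested on simulated data.

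Residuals of same-numbered libraries correlated at 0.138 to 0.458 between iDOT1L and DMSO and 0.125 to 0.501 between iEZH2 and DMSO, all over 0.1, so both contrasts are also given with a replicate block, although what a number marks is unknown. The source names of the libraries carry a matching run of numbers in every group, Combo included. The block was fitted over all 16 libraries, Combo included. No library was a copy of another (Pearson r over 120 pairs 0.967 to 0.981). Members and lists were chosen with earlier results of these data known. Named genes were, by lowest adjusted p, up to 8 called each way in Combo and 4 in each single treatment against DMSO, up to 3 each way in other contrasts, the 5 highest per kb, and 6 with known targets or imprinting. Other genes were named after their values were seen. Alternatives changed the block, GC content and length, scale, pseudocount, filter, scaling and libraries.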

Additional observations from a re-analysis of the deposited data

Results flagged for a closer look

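In 9 of the 84 groups of 4 libraries examined over the named members, 1 library stood apart from the other 3 beyond Dixon's critical value at 95%, which chance alone gives in about 1 group in 20. ZNF616 stood out at 471 normalised counts, ZNF558 at 888.5 and ZNF587 at 718.6, all in iEZH2 replicate 1, with ZNF587 lower and the other two higher than their group. In replicate 3, ZNF440 stood out at 509.6 and ZNF317 at 1783 in iDOT1L, and ZNF780A at 544.8 and ZNF317 at 1765 in DMSO, each the lowest of its group. ZNF888 stood out at 424.7 in Combo replicate 1 and ZNF865 at 631.9 in Combo replicate 3, each the highest of its group.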

How the results depend on the processing

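The median log2 fold change of the members in Combo against DMSO stayed negative in every alternative, at -0.18 with the correction for GC content and length, with or without the replicate block, and -0.06 on the deposited scale, against -0.11. In Combo against iDOT1L the median was -0.08 on the deposited scale, against -0.14. Members called lower in Combo against DMSO, 19 in the text, were 47 with block and GC correction together (19.7%, against 16.3% of all genes), 28 with the block alone (11.7%, against 13.3%; 19 shared), 28 with the GC correction alone (18 shared), 17 with quantile normalisation (7.11%, against 7.63%; 14 shared) and 12 to 20 when 1 library was left out. Members called higher there, 2 in the text, were 5 with the block (2.09%, against 11.3%) and 1 to 4 when 1 library was left out (1 without Combo replicate 3, 4 without DMSO replicate 3). Members called lower in iDOT1L against DMSO, 0 in the text, were 3 with the block, 2 with the GC correction, 6 with both (2.51%, against 8.61%), 1 on the deposited scale, with a mean of at least 10 or with quantile normalisation, and 0 to 2 when 1 library was left out; members called higher, 1 in the text, were 0 with a mean of at least 10 and 0 to 1 when 1 library was left out. In iEZH2 against DMSO, 1 was higher with the block, with or without the GC correction, and members called lower, 3 in the text, were 9 with the block, 15 with block and GC correction (6.28%, against 7.12%), 1 with quantile normalisation and 0 to 6 when 1 library was left out. In Combo against iDOT1L, 0 in the text, 1 was higher with the block, with or without GC correction, and 16 were lower with the block (6.69%, against 6.26%), 5 with the GC correction, 23 with both (9.62%, against 7.04%), 3 with a mean of at least 10, 1 with quantile normalisation and 0 to 3 when 1 library was left out. In Combo against iEZH2, 0 in the text, 1 was higher with the block, the GC correction, both, a pseudocount of 5 or a mean of at least 10, and 0 to 2 when 1 library was left out, and 7 were lower with the block, with or without the GC correction (2.93%, against 5.24% and, with the correction, 6.39%), and 0 to 3 when 1 library was left out. The cause of these differences was not tested. Pairing by number is not established for Combo: its lowest residual correlation was 0.0882 with iDOT1L, 0.0896 with iEZH2 and 0.0334 with DMSO, and 6, 6 and 3 of 8 libraries correlated best with their own number. The same count was 7 of 8 between iDOT1L and DMSO and 5 of 8 between iEZH2 and DMSO, so it does not set these pairs apart from all those with Combo. Over single named genes, 1884 values kept direction and side of the threshold, 50 gained a call, 32 lost one and 108 uncalled ones moved or changed sign, and no called value changed sign. The interaction gave no call of a member in any alternative. Depth limits the 34 members under 10 normalised counts.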

Other observations

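Members with few reads had the widest fold changes, and they are given as values only. ZNF491 averaged 4.54 ± 5.15 normalised counts in Combo and 0.468 ± 0.937 in DMSO, ZNF729 3.13 ± 1.64 in Combo and 0.791 ± 1.03 in DMSO, and ZNF492 6.26 ± 1.71 in Combo and 2.65 ± 1.8 in DMSO (SD, n = 4 each). ZNF208 averaged 5.56 ± 6.99 in Combo and 9.38 ± 2.29 in DMSO, and ZNF730 1.61 ± 0.594 in Combo and 4.85 ± 0.993 in DMSO. None of the 5 passed in Combo against DMSO by limma, and they were chosen after their values were seen.

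Across the 152 members with a mean of at least 100 normalised counts, the log2 fold change in Combo against DMSO had a Spearman correlation of 0.15 with the GC content of the transcript, -0.18 with its length, -0.11 with the number of fingers and -0.07 with the share of words found in other genes. These are descriptions across genes of the same 16 libraries. The transcripts of the members had a median GC content of 42.26%, against 48.75% for protein-coding genes.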
